A study of Mus musculus with 6 samples.

Results

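Glucocorticoid-induced target genes were followed in the prefrontal cortex (PFC) of mice after early life stress (ELS). The members were Fkbp5, Tsc22d3, Zbtb16, Hif3a, Plin4, Sgk1, Errfi1, Klf9, Cdkn1a and Pdk4, which are 10 of the 22000 gene symbols counted. They were picked from genes known to respond to glucocorticoids in brain, and chosen with the measured ELS and control values of these same mice in view. Their differences between the groups are therefore given as a description, and where calls of members by a test over all genes are counted, they are not evidence for the members. A symbol was kept where all mice of either group reached 1 CPM, the reads of a gene scaled to the total of its library. All 10 members passed this filter, among 13185 symbols in total. Plin4 passed it through the control mice alone, with every ELS mouse under 1 CPM. For such a gene the filter favours a lower level in ELS mice, so nothing is read from the direction of Plin4. The other 9 members were above 1 CPM in each of the 6 mice.

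The samples were 3 control mice and 3 ELS mice, all wild-type males of strain C57BL/6N. ELS was social isolation: each mouse was housed alone from weaning under a filter cap, whereas control males shared a cage without a cap. Isolation and the cap cannot be told apart here. The groups were drawn from common litters, and per the paper behaviour was assessed before dissection. The labels give 9 weeks as the age, and RNA of each mouse went into its own library. Levels of the hormone itself were not analysed here. Total counts ran from 28405795 to 35241743 per mouse, with the 3 ELS libraries deeper than the 3 of the controls. Values are CPM scaled by the TMM method of edgeR, and spreads are SDs over the 3 mice of a group.

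Glucocorticoids (corticosterone in the mouse) are released by the adrenal cortex under stress and with the daily rhythm. In cells they bind the glucocorticoid receptor, which is held ready by heat shock proteins, enters the nucleus, and activates transcription at glucocorticoid response elements. The induced genes include a brake on the receptor itself, transcription regulators, signalling proteins and enzymes of fuel use, and several of them are widely read as a sign of hormone action in brain tissue.

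The promoters are shown because the receptor acts through a short DNA element. The RefSeq promoter table (GRCm38.p6) held 18 promoters for 9 of the 10 members, and Zbtb16 was the member without an entry. The 250 bases before each start were searched on both strands for the hexamer AGAACA, which reads TGTTCT on the other strand. It was present in 4 of the 18 promoters, 3 of Sgk1 and 1 of Tsc22d3. Of all 32851 promoters in the table, 16.1% held it. The full palindrome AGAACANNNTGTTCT, which contains the hexamer in both directions and was searched after the hexamers had been seen, was present in 1 Sgk1 promoter and in 3 promoters of the whole table (0.00913%). A match describes letters in this window, and a window without one says nothing of the receptor. The Sgk1 promoter with the palindrome, chr10:21993640-21993889 (plus strand), lies inside the Sgk1 gene but in no annotated exon, and the palindrome spans bases 21993701 to 21993715 and begins 189 bases before the start. In Tsc22d3, the exon-free stretch of the promoter is chrX:140600660-140600772 (minus strand), with the hexamer at 140600702 to 140600707. The Fkbp5 promoter, chr17:28486150-28486399 (minus strand), held no match and is shown for contrast. Capitals mark the hexamers.
Sgk1: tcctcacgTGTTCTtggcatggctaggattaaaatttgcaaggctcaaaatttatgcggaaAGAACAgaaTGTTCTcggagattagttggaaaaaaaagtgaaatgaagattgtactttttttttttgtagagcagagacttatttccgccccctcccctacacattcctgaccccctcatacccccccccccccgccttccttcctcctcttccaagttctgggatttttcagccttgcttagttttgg
Tsc22d3: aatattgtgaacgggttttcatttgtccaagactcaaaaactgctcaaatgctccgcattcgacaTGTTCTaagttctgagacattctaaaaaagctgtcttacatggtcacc
Fkbp5: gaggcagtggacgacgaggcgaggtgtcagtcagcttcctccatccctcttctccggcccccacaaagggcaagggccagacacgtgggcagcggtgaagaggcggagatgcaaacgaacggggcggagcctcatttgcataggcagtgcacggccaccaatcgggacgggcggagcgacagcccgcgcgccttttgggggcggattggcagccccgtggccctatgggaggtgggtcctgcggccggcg

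In 5 members, Fkbp5, Tsc22d3, Zbtb16, Hif3a and Plin4, every ELS mouse lay below every control mouse, with fitted levels in control mice 1.40 to 3.35 times those in ELS mice. In the other 5, Sgk1, Errfi1, Klf9, Cdkn1a and Pdk4, the groups overlapped. Among all genes tested, every ELS mouse lay below every control mouse in 4.47% and above in 3.81%. The log2 fold change (ELS minus control) was below 0 in 9 of the 10 members and in 52.5% of all genes. As the choice of members was made with this contrast known, nothing is read from these counts. Tissue was analysed in bulk, so fewer cells of a type and less RNA per cell cannot be told apart in any of these values.

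**Figure D1:**
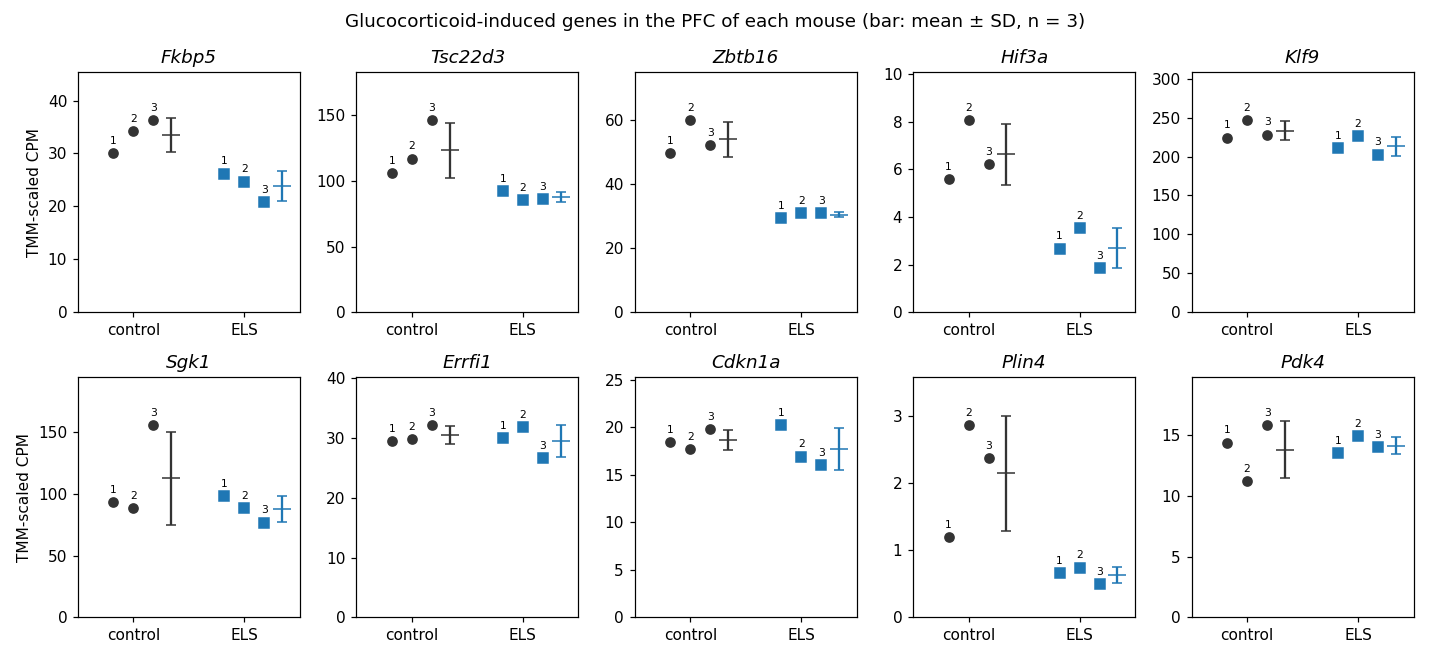
TMM-scaled CPM (linear axes from 0) of the 10 members in each mouse, with control mice as circles and ELS mice as squares, numbered by mouse. The horizontal mark is the group mean and the bar its SD (n = 3). Groups are apart in Fkbp5, Tsc22d3, Zbtb16, Hif3a and Plin4, and Sgk1 is high in control mouse 3, at 155.8 CPM.

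Fkbp5 encodes a co-chaperone that lowers the affinity of the glucocorticoid receptor for hormone, so its induction closes a short negative feedback loop. It lies on chromosome 17 from 28399094 to 28517527 (minus strand, GRCm38). Fkbp5 stood at 30.0, 34.3 and 36.3 CPM in controls 1 to 3 and at 26.2, 24.7 and 20.8 CPM in ELS mice 1 to 3. The lowest control mouse was above the highest ELS mouse. Group means of 33.5 ± 3.22 CPM for controls and 23.9 ± 2.79 CPM for ELS (SD, n = 3 mice) differed by a log2 fold change of -0.49 (standard error 0.101). The gap between the nearest mice of the 2 groups, 30.0 against 26.2 CPM, was only a little wider than the SD within either group.

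Tsc22d3 encodes GILZ, a leucine zipper protein that holds back inflammatory transcription. The gene is on chromosome X from 140539528 to 140600659 (minus strand), and 1 of its promoters is among the sequences above. Tsc22d3 had 106, 117.1 and 146.6 CPM in control mice 1 to 3 against 92.2, 85.5 and 86.0 CPM in ELS mice 1 to 3. The ELS mice lay close together, while control mouse 3 was well above the other controls. Control mice averaged 123.3 ± 21.0 CPM and ELS mice 87.9 ± 3.72 CPM (SD, n = 3 mice), with a log2 fold change of -0.49 (standard error 0.102). Without control mouse 3 the log2 fold change of Tsc22d3 was -0.35.

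Zbtb16 encodes PLZF, a zinc finger repressor of transcription. The gene spans chromosome 9 from 48654297 to 48836222 (minus strand). The Zbtb16 level was 49.8, 60.2 and 52.2 CPM in controls 1 to 3 and 29.5, 30.9 and 30.95 CPM in ELS mice 1 to 3. The 3 ELS mice were nearly equal, with a coefficient of variation (CV, the SD as a percent of the mean) of 2.67%, below the 3.13% that counting alone would give at this depth. Their mean of 30.5 ± 0.814 CPM was set against 54.1 ± 5.42 CPM in controls (SD, n = 3 mice), a log2 fold change of -0.83 (standard error 0.0819). Control mouse 2, not mouse 3, was the highest here.

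Hif3a encodes an alpha subunit of the hypoxia-inducible factors, some forms of which restrain the activity of the other subunits. It lies on chromosome 7 from 17031507 to 17062427 (minus strand). Hif3a was low, with 5.59, 8.08 and 6.22 CPM in controls 1 to 3 and 2.67, 3.55 and 1.86 CPM in ELS mice 1 to 3. The groups were apart, but the ELS mice themselves were widely spread, with mouse 2 high and mouse 3 low. Averages of 6.63 ± 1.29 CPM and 2.69 ± 0.843 CPM (control and ELS; SD, n = 3 mice) gave a log2 fold change of -1.29 (standard error 0.223). The CV of 31.3% among ELS mice was above that of 98.9% of all genes tested. Counting accounts for a CV of 10.5% at these 60 to 124 reads.

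Klf9 encodes a Krüppel-like transcription factor induced early by glucocorticoids in neurons, and lies on chromosome 19 from 23141226 to 23168134 (plus strand). It was measured at 224.3, 247 and 228.1 CPM in controls 1 to 3 and at 210.5, 226.4 and 202.5 CPM in ELS mice 1 to 3. ELS mouse 2 lay between the control mice, so the groups overlapped. Means were 233.1 ± 12.2 CPM in controls and 213.1 ± 12.2 CPM in ELS (SD, n = 3 mice), and the log2 fold change of Klf9 was -0.13 (standard error 0.0701).

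Sgk1 encodes a serum- and glucocorticoid-regulated kinase that acts on ion channels and transporters, and in brain it is prominent in oligodendrocytes. It lies on chromosome 10 from 21882184 to 21999903 (plus strand), and the promoter with the palindrome shown above is 1 of its 6 in the table. Sgk1 had 93.6, 88.5 and 155.8 CPM in controls 1 to 3 and 98.1, 88.4 and 76.9 CPM in ELS mice 1 to 3. Control mouse 3 stood far above the other 5 mice, which shared 1 range. Controls averaged 112.6 ± 37.4 CPM and ELS mice 87.8 ± 10.6 CPM (SD, n = 3 mice), for a log2 fold change of -0.36 (standard error 0.172). Without control mouse 3 the log2 fold change of Sgk1 was -0.05, so 1 library decided its value.

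Errfi1 encodes an inhibitor of receptors of the EGFR family, on chromosome 4 from 150853919 to 150868892 (plus strand). Its levels were 29.5, 29.8 and 32.1 CPM in controls 1 to 3 and 30.0, 31.8 and 26.6 CPM in ELS mice 1 to 3. The groups covered the same range apart from ELS mouse 3, which was lowest. Errfi1 averaged 30.5 ± 1.46 CPM in controls and 29.5 ± 2.62 CPM in ELS (SD, n = 3 mice), a log2 fold change of -0.05 (standard error 0.0847).

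Cdkn1a encodes p21, an inhibitor of cyclin-dependent kinases that halts the cell cycle, on chromosome 17 from 29090976 to 29100727 (plus strand). It had 18.4, 17.7 and 19.9 CPM in controls 1 to 3 and 20.2, 16.9 and 16.1 CPM in ELS mice 1 to 3. ELS mouse 1 was the highest of all and ELS mouse 3 the lowest. With means of 18.7 ± 1.09 CPM for controls and 17.8 ± 2.21 CPM for ELS (SD, n = 3 mice), the log2 fold change of Cdkn1a was -0.07 (standard error 0.102). A gene on the opposite strand, AC167363.2, overlaps 7.68% of the Cdkn1a exon bases, and the strand setting of the counting is not given in the sources used here.

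Plin4 encodes a perilipin that coats lipid droplets, on chromosome 17 from 56100591 to 56109803 (minus strand). It was the least expressed member, with 37, 81 and 68 reads in controls 1 to 3 and 22, 26 and 16 reads in ELS mice 1 to 3. This was 1.20, 2.87 and 2.38 CPM in controls and 0.660, 0.744 and 0.496 CPM in ELS mice. The groups did not overlap, and control mouse 1 lay nearer to the ELS mice than to the other controls. Means of 2.15 ± 0.856 and 0.633 ± 0.126 CPM (control and ELS; SD, n = 3 mice) gave the largest difference of the members, a log2 fold change of -1.74 (standard error 0.337). In ELS mice the CV of 19.9% was below the 21.7% that counting alone would give, whereas in controls it was 39.8% against 12.7% from counting.

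Pdk4 encodes a pyruvate dehydrogenase kinase that turns fuel use from glucose toward fatty acids, on chromosome 6 from 5483351 to 5496309 (minus strand). The values were 14.4, 11.2 and 15.8 CPM in controls 1 to 3 and 13.5, 14.9 and 14.0 CPM in ELS mice 1 to 3. All ELS mice lay within the range of the controls. Pdk4 averaged 13.8 ± 2.33 CPM in controls and 14.1 ± 0.701 CPM in ELS (SD, n = 3 mice), and its log2 fold change of 0.03 (standard error 0.120) was the only one of the members above 0.

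Levels of different genes were compared per kb of exon, with exons of all GENCODE M21 transcripts of a gene joined. Klf9 was the highest member in control mice at 48.4 CPM per kb, followed by Tsc22d3 at 28.4 and Sgk1 at 23.0 CPM per kb. Zbtb16 at 10.2 and Errfi1 at 8.50 CPM per kb came next, then Cdkn1a at 5.26, Pdk4 at 3.93 and Fkbp5 at 3.54 CPM per kb. Hif3a at 0.988 and Plin4 at 0.372 CPM per kb were lowest. In ELS mice Klf9, Tsc22d3 and Sgk1 again led with 44.3, 20.2 and 17.9 CPM per kb, and Errfi1 at 8.22 CPM per kb stood above Zbtb16 at 5.76 CPM per kb. Among neighbours in the order of the controls, the ranges of Tsc22d3 and Sgk1 overlapped over the mice, but within each mouse Tsc22d3 was above Sgk1 per kb. Pdk4 and Fkbp5 also overlapped, and their order differed between control mice.

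A gene counted as called in edgeR's quasi-likelihood test where its p, adjusted by Benjamini and Hochberg over all genes, was under 0.05 and its log2 fold change beyond 0.3 in either direction. Of all genes tested, 2 were called, or 0.0152%, and Zbtb16 was the only member among them. DESeq2 with the same thresholds called 0.137% of all genes and 5 members, and the edgeR likelihood ratio test 0.212% of all genes and 5 members. With both tools these were Fkbp5, Tsc22d3, Zbtb16, Hif3a and Plin4. The number of members called therefore depended on the test, and because their contrast was known when they were chosen, it is not evidence for them.

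**Figure D2:**
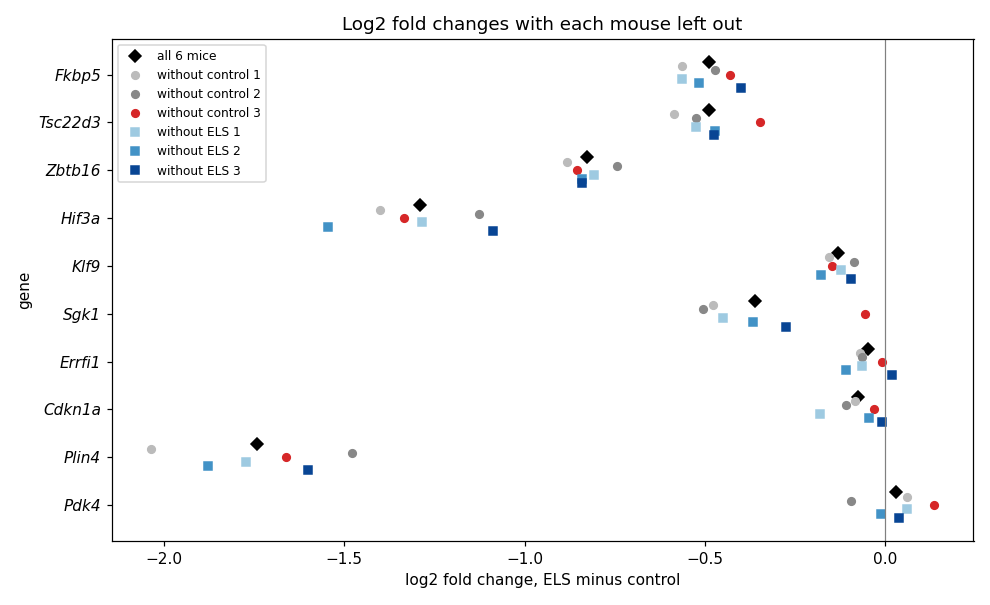
Log2 fold change (ELS minus control, horizontal axis) of each member with all 6 mice (diamonds) and in fits that omit a single mouse (circles for controls, squares for ELS mice). Sgk1 moved from -0.36 to -0.05 without control mouse 3, while Zbtb16 kept to the range from -0.88 to -0.74.

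When single mice were left out, the log2 fold change of Fkbp5 ran from -0.56 to -0.40. Hif3a ran from -1.55 to -1.09 and Plin4 from -2.04 to -1.48. Since the groups of these genes did not overlap, leaving out a mouse could not have turned the direction. The direction did turn for Pdk4 and Errfi1, both near 0. Klf9 ran from -0.18 to -0.09 and Sgk1 from -0.51 to -0.05. Cdkn1a ran from -0.18 without ELS mouse 1 to -0.008 without ELS mouse 3.

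The order of mice within a group is given as a description too, since the same 6 libraries were in view when the members were chosen. Among the controls, mouse 3 was the highest in 6 members (Fkbp5, Tsc22d3, Sgk1, Errfi1, Cdkn1a and Pdk4) and mouse 2 in 4 (Zbtb16, Hif3a, Plin4 and Klf9), whereas mouse 1 was the highest in 0. Among all genes tested, control mouse 3 was the highest control in 38.9% and control mouse 2 in 29.9%. Relative to the mean of the other controls, control mouse 3 had 1.71 times the Sgk1, 1.31 times the Tsc22d3 and 1.23 times the Pdk4 level, but only 0.950 times the Zbtb16 and 0.910 times the Hif3a level. Control mouse 2 had 1.60 times the Plin4, 1.37 times the Hif3a and 1.18 times the Zbtb16 level of the other controls, and 0.710 times the Sgk1 level. Among the ELS mice, mouse 3 was the lowest in 7 of the 10 members, against 28.9% of all genes tested. The members thus did not share 1 order of mice.

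**Figure D3:**
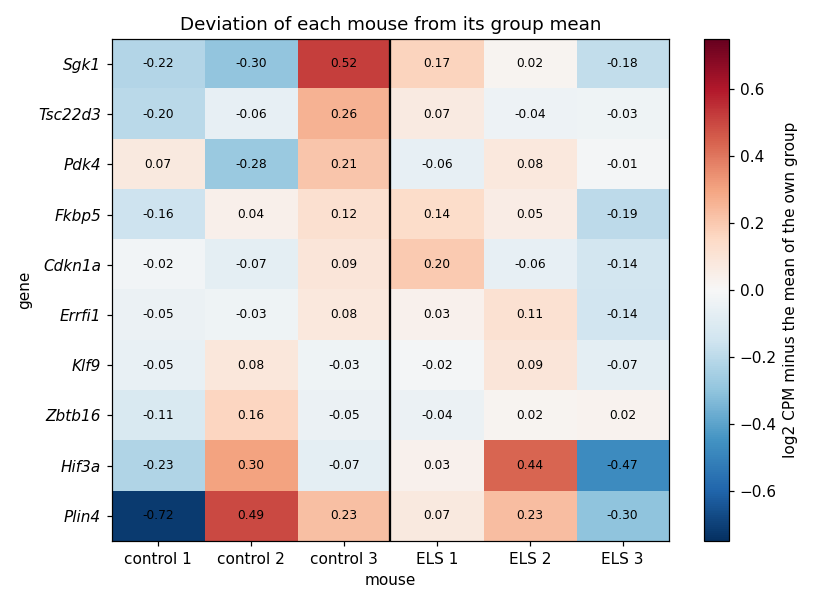
Deviation of each mouse from the mean of its own group, in log2 CPM, for the 10 members (rows) in the 6 mice (columns), red for above and blue for below. Control mouse 3 is above its group in Sgk1 by 0.52 and in Tsc22d3 by 0.26, and below it in Zbtb16 by a small amount.

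Among the 10 members, 5 had the larger CV among controls and 5 among ELS mice. Sgk1 had a CV of 33.2% among controls, above that of 98.6% of all genes tested, and 12.1% among ELS mice. Tsc22d3 had 17.0% and 4.24%, Zbtb16 10.03% and 2.67%, and Pdk4 16.9% and 4.97%. In the other direction, Hif3a had 19.5% among controls and 31.3% among ELS mice, Errfi1 4.78% and 8.88%, and Cdkn1a 5.83% and 12.4%. Fkbp5 and Klf9 differed less, with 9.59% and 11.7% for Fkbp5 and 5.21% and 5.70% for Klf9. The median CV over all genes tested was 8.28% in controls and 5.96% in ELS mice.

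The 5 genes outside the members whose deviations within groups were most like the members' mean deviation were RP24-315N18.1, Mllt11, Arl5a, Ube2n and Npy2r. Their Pearson r was 0.995, 0.995, 0.995, 0.994 and 0.989 over 6 mice, a description over few points that share their libraries. Of all genes tested, 1.38% had an r over 0.9.

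Markers of some cell types moved with control mouse 3. Summed over 8 oligodendrocyte markers, CPM was 6108, 6242 and 8043 in controls 1 to 3 and 7136, 6164 and 6741 in ELS mice 1 to 3, and all 8 were highest in control mouse 3 among the controls. Summed over 7 striatal neuron markers, it was 243.5, 261.6 and 466.8 CPM in controls and 443, 287.5 and 316.4 CPM in ELS mice, and the 5 blood markers gave 51.0, 59.8 and 85.2 CPM against 79.8, 52.6 and 64.4 CPM. In these 3 lists control mouse 3 and ELS mouse 1 were the highest of their groups, as they were in Sgk1, Tsc22d3, Fkbp5 and Cdkn1a. The other members did not follow this order. Control mouse 2 was the highest control in Zbtb16, Hif3a, Plin4 and Klf9, and ELS mouse 2 was the highest ELS mouse in Errfi1 and Pdk4. How many of all genes have this order was not counted. The part of these markers in the member values was not tested. Sums for neurons (11570 to 12190 CPM in controls, 11000 to 12060 CPM in ELS) and astrocytes (6537 to 6704 and 5903 to 6792 CPM) overlapped between the groups, as did those of endothelium, pericytes and microglia. The 4 oligodendrocyte precursor markers gave sums of 180.1 to 185.6 CPM in controls and 187.1 to 205.6 CPM in ELS mice, which did not overlap, although the groups overlapped in each of the 4 markers taken singly. Only 2 of 6 choroid plexus markers passed the filter, with sums of 2.62 to 2.66 CPM in controls and 3.13 to 3.95 CPM in ELS mice. None of the markers was called by edgeR's quasi-likelihood test, DESeq2 or the likelihood ratio test, and of the 63 tested 4 were higher and 0 lower in ELS mice at an unadjusted p under 0.05, against 1.89% higher and 2.34% lower of all genes.

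The rest of the pathway was read from a list of 24 other genes known to be induced by glucocorticoids, of which 23 passed the filter and Lcn2 did not. Earlier results of these data were known when this list was drawn up. Its counts and median are therefore a description, not independent evidence for the members or the pathway. In ELS mice 20 had a log2 fold change below 0 and 3 above it, with a median of -0.23 against -0.0046 over all genes tested. None was called: the count was 0 in edgeR's quasi-likelihood test, DESeq2, the likelihood ratio test and limma-voom. At an unadjusted p under 0.05 in the quasi-likelihood test, 9 of the 23 (39.1%) were lower and 0 higher, against 2.34% lower and 1.89% higher of all genes. In 7 of the 23 every ELS mouse lay below every control mouse, and in 0 above, against 4.47% and 3.81% of all genes.

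The lowest log2 fold changes of this list were those of Xdh, a purine-degrading oxidase gene, and Cebpd, a C/EBP transcription factor gene. Xdh had 7.60, 7.22 and 9.08 CPM in controls 1 to 3 and 6.60, 4.83 and 4.99 CPM in ELS mice 1 to 3, with a log2 fold change of -0.54 (standard error 0.155). Cebpd was at 4.35, 2.87 and 6.32 CPM in controls and 3.51, 3.12 and 2.82 CPM in ELS mice, with a log2 fold change of -0.52 (standard error 0.245) and groups that overlapped. Without control mouse 3 it was -0.20 for Cebpd and -0.44 for Xdh. The highest were Angptl4, an inhibitor of lipoprotein lipase, and Cebpb, a further C/EBP factor gene. Angptl4 averaged 2.26 ± 0.420 CPM in controls and 2.81 ± 0.220 CPM in ELS (SD, n = 3 mice), a log2 fold change of 0.32 (standard error 0.200). Cebpb averaged 8.98 ± 1.40 and 9.85 ± 0.577 CPM in the same order, a log2 fold change of 0.13 (standard error 0.127) that was 0.27 without control mouse 3. In that fit Angptl4 had 0.46.

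Control mouse 3 was the highest control in 15 of the 23 genes (65.2%). Without it, the median of the list was -0.14, 14 of the 23 were below 0, and 9 were lower and 2 higher at an unadjusted p under 0.05, against 7.24% lower and 4.45% higher of all genes in that fit. The 2 higher were Cebpb and Ddit4. The log2 fold change of Ddit4 was -0.09 (standard error 0.196) with all 6 mice and 0.25 without control mouse 3, so 1 library turned its direction. Without that mouse 29 of all 13212 genes tested were called, against 2 of all genes with all 6 mice. From the list, 2 genes were among the 29, Irs2 and Per1. In both, control mouse 3 was the lowest control and lay within the range of the ELS mice. Irs2, an adaptor of the insulin receptor, had 72.5, 66.7 and 53.4 CPM in controls 1 to 3 and 53.6, 50.8 and 45.8 CPM in ELS mice 1 to 3. With all 6 mice its log2 fold change was -0.36 (adjusted p = 0.861), and without control mouse 3 it was -0.48 (adjusted p = 0.0185, both from edgeR's quasi-likelihood test). Per1, a clock gene that glucocorticoids also induce, had 113.4, 111.3 and 82.0 CPM in controls and 88.3, 91.9 and 76.7 CPM in ELS mice. Its log2 fold change was -0.26 with all 6 mice (adjusted p = 1) and -0.39 without control mouse 3 (adjusted p = 0.0497, both from edgeR's quasi-likelihood test). Irs2, Per1 and Ddit4 were singled out after their values were seen.

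**Figure D4:**
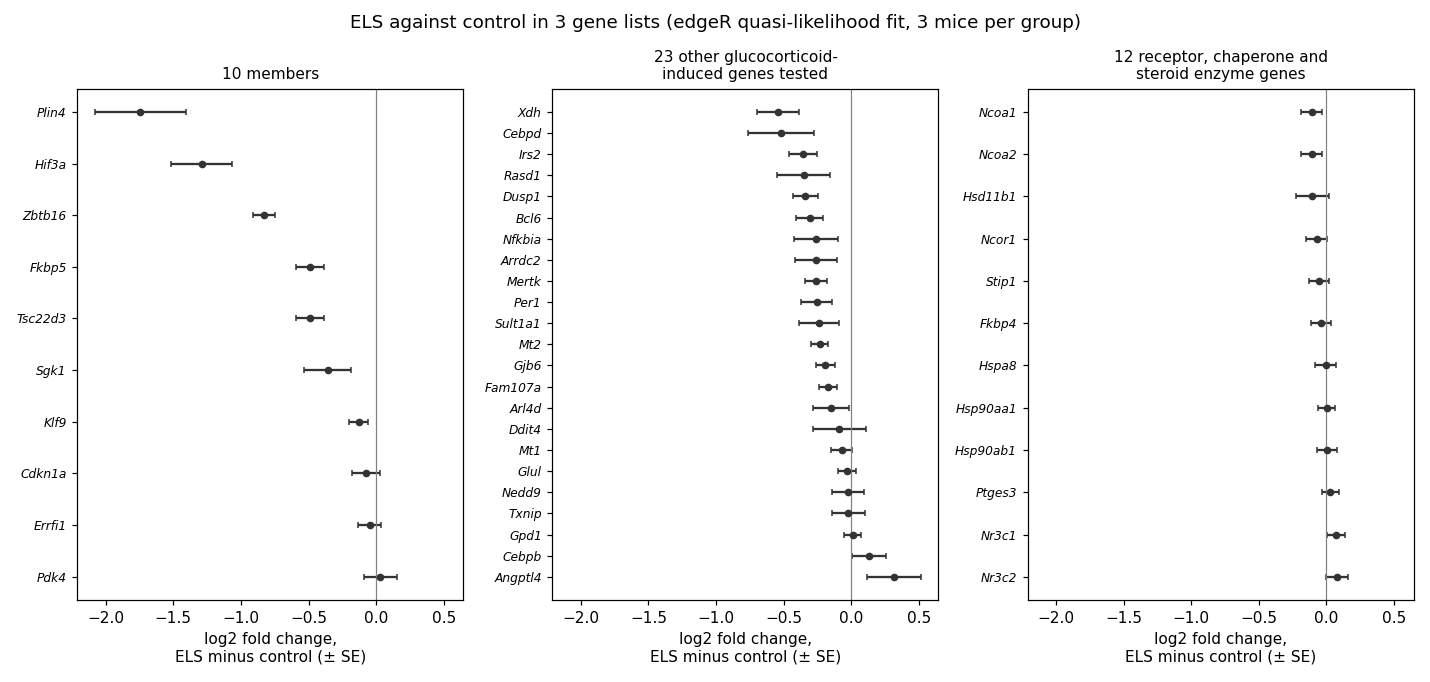
Log2 fold change (ELS minus control, horizontal axes, bars ± standard error from the quasi-likelihood fit of 3 mice per group) of the 10 members, the 23 other glucocorticoid-induced genes and the 12 genes of receptors, chaperones and steroid enzymes. The receptor list stays within -0.11 and 0.08, while 20 of the 23 other induced genes lie below 0.

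Genes that act before the members in the pathway were read from a list of 12, also drawn up with earlier results known. All 12 passed the filter. The list holds both corticosteroid receptors, their chaperones and coregulators, and Hsd11b1, the enzyme that regenerates active hormone. In ELS mice 7 were below 0 and 5 above, with a median log2 fold change of -0.02, and their groups overlapped in all 12. None was called by edgeR's quasi-likelihood test (0, with 0 at an unadjusted p under 0.05), DESeq2 or the likelihood ratio test. Over all genes tested 0.0152%, 0.137% and 0.212% were called by these tests. At an unadjusted p under 0.05 in the quasi-likelihood test, 2.34% were lower and 1.89% higher. A count of 0 among 12 genes is near these shares. Nr3c1, the glucocorticoid receptor, averaged 152.9 ± 10.7 CPM in controls and 160.7 ± 3.01 CPM in ELS (SD, n = 3 mice), a log2 fold change of 0.07 (standard error 0.0691). Nr3c2, the mineralocorticoid receptor, averaged 39.0 ± 4.01 and 41.2 ± 1.56 CPM in that order, a log2 fold change of 0.08 (standard error 0.0828). The coactivator genes Ncoa1 and Ncoa2 had the lowest values, each with a log2 fold change of -0.11 (standard errors 0.0776 and 0.0784).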

How the data were processed

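RNA-seq of PFC from 3 control and 3 ELS mice was analysed from the counts the authors deposited, which were raw read counts per gene symbol, neither normalized nor pooled. Per the paper, trimmed reads were aligned to mm10 with STAR and uniquely mapped reads counted with HTSeq. The submitters' processing notes give STAR 2.7.1a and HTSeq 0.9.1, and the paper names another STAR version. The library kit also differs between the labels (TruSeq stranded mRNA) and the paper (KAPA). The annotation release and the strand setting are not given in the sources used here, so reads of overlapping genes may be shared. Columns headed SI were matched to the ELS mice by the social isolation they stand for and their number. RNA had an integrity number of at least 8.8.

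The members and the other gene lists were chosen with earlier results of these data known. Symbols that reached 1 CPM in each mouse of either group were fitted in R 4.3.3 with edgeR 4.0.16 (TMM factors, quasi-likelihood test, condition only), and p-values were adjusted over all 13185 genes by the Benjamini-Hochberg method. The F statistic gave the standard errors. limma 3.58.1 (limma-voom) and DESeq2 1.42.0 served as alternatives, with other normalizations and filters, a replicate block and each mouse left out. The size of fitted log2 fold changes was checked on simulated counts in which each gene was drawn independently. Each library is from a separate mouse, but the groups shared litters and which mice were littermates or cage mates is not given in the sources used here, so p-values measure only the spread between these 6 mice. Mice of a group differed by more than sampling noise (chi-square per degree of freedom 6.39 or more), and each was counted as a replicate. Counting CVs are those of Poisson counts at the mean read number and cover counting error only.

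Of the 22000 symbols, 27 had been turned into dates and 2 were repeated, and 89.2% were found in GENCODE M21 on GRCm38, the assembly also called mm10. The genes named are the 10 members, from both other pathway lists the genes called and the 2 lowest and 2 highest log2 fold changes, and the 5 genes most like the members within groups. Outside this rule, Irs2, Per1 and Ddit4 were named after their values were seen, Lcn2 as the listed gene below the filter, Hsd11b1 to say what its list holds, and AC167363.2 for its overlap with Cdkn1a. Cell type markers are given as sums and counts. That likeness is Pearson's r, over the 6 mice, of log2 CPM deviations from the group mean with the mean standardised deviation of the members.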

Additional observations from a re-analysis of the deposited data

How the results depend on the processing

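The precision was limited by 3 mice per group, and for Plin4 and Hif3a also by low counts. The number of genes called was 2 and moved to 18 with DESeq2, 28 with the likelihood ratio test, 4 without a filter beyond 1 read, and 7 with the replicate block. Members called were 1, and 5 with DESeq2, 5 with the likelihood ratio test, 2 without a filter beyond 1 read, and 2 with the replicate block, which added Hif3a. Deviations of same-numbered mice correlated at -0.123, 0.213 and -0.031 for numbers 1 to 3, so the numbers were not taken to pair the mice. Across fits that each left out 1 mouse, genes called ran from 1 to 29, members called from 1 to 3, other glucocorticoid-induced genes called from 0 to 2 and the median of that list from -0.23 to -0.14. The highest counts came without control mouse 3, where Zbtb16, Hif3a and Tsc22d3 were the members called, and the cause was not tested. Leaving out both control mouse 3 and ELS mouse 1, an alternative chosen after seeing the data, gave 27 genes, 3 members and 2 other glucocorticoid-induced genes called. These counts of calls use the contrast that was known when the members were chosen and support nothing about them. Zbtb16 was called in 15 of 15 alternatives, with log2 fold changes from -0.88 to -0.74, Hif3a in 6, Tsc22d3 in 4, and Fkbp5 and Plin4 in 2 each. The log2 fold change of Pdk4 (0.03) reversed to -0.094 without control mouse 2 and to -0.010 without ELS mouse 2. Over the fits without a mouse it ran from -0.094 to 0.138, and it was 0.173 without both control mouse 3 and ELS mouse 1. That of Errfi1 (-0.05) reversed to 0.020 without ELS mouse 3, in a range from -0.107 to 0.020. Members below 0 numbered 8 to 10 over the alternatives. Limma-voom, DESeq2 size factors, upper-quartile factors and filterByExpr left the number of members called at 1.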
